A study of Saccharomyces cerevisiae with 6 samples.

Results

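IMD2, IMD3, IMD4 and GUA1 make up the guanine branch of purine nucleotide synthesis in budding yeast, and their transcripts were compared between a wild-type strain and a strain without CBC2. The members were taken by gene symbol from the platform annotation. The 4 genes, of 5656 named alone by at least 1 probe set, had 7 of the 9335 probe sets on the array, and no probe set naming several genes held any of them. The group was chosen by its behaviour in this same comparison, in which IMD2 was already known to be higher in the deletion strain. The values of its members are therefore given as a description. The array-wide fit includes them, but no p-value is printed for them and nothing is concluded from their calls.

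The strains were wild type (Y255) and an isogenic cbc2Δ strain (Y2685), with 3 Affymetrix Yeast Genome S98 arrays of total RNA from each. Both were grown at 30 °C in SC medium to log phase, at an OD600 of 1.0. How the deletion was made, its marker and the number of clones are not stated in the labels. The labels do not say whether the samples were separate cultures, so the spread between them may be partly technical.

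IMP dehydrogenase oxidises IMP to XMP, the first step that commits the purine precursor to guanine nucleotides, and IMD2, IMD3 and IMD4 each encode a form of it. GUA1 encodes GMP synthase, which turns XMP into GMP with glutamine as the nitrogen donor. IMD2 is known for its control by guanine nucleotide supply. When GTP is plentiful, transcription starts upstream and is ended early by the Nrd1-Nab3-Sen1 complex, and when GTP is short a downstream start gives the messenger RNA. The Imd2 protein is also the form that resists mycophenolic acid, a drug against IMP dehydrogenase. CBC2 encodes the smaller of the paired subunits of the nuclear cap-binding complex, which binds the 5′ cap of new transcripts.

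CBC2 (YPL178W), the deleted gene, had a normalised intensity of 828 ± 60.6 (SD, n = 3) in the wild type, while every deletion array was at the floor (8.25), at least 100-fold lower. Arrays correlated at 0.980 to 0.988 within a strain and at 0.951 to 0.969 between strains (log2 values over all probe sets except controls). Of 6956 probe sets tested across the array, 2187 (31.4%) were called at a limma adjusted p under 0.05. Fluidics stations differed, since wild-type arrays 1 and 2 ran on station 1 and all others on station 2. Deletion array 2 was scanned in a batch of its own. The 3′ to 5′ signal ratio of the TATA-binding protein gene, a measure of RNA integrity, was 2.48 to 3.74 on wild-type arrays and 3.67 to 5.13 on deletion arrays. The same ratio for the actin gene ACT1 was 1.15 to 1.47 on wild-type arrays and 1.02 to 1.42 on deletion arrays. For both genes the ranges of the strains overlapped. The part of RNA integrity in the results was not tested. For each member, values with the station as a block and with an array left out are given below. For other genes only some of the calls that changed in these settings are given.

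IMD2 (YHR216W) was about 3-fold higher in the deletion strain on each of its probe sets, and it was the member that differed most. On probe set 11264_f_at the normalised intensity was 454, 514 and 553 on wild-type arrays 1 to 3, and 1574, 1361 and 1859 on deletion arrays 1 to 3. On 4323_f_at it was 314, 406 and 380 against 1504, 1213 and 1183. On 11263_f_at it was 116, 97.0 and 101 against 327, 297 and 412. In all 3 the strains were far apart: the lowest deletion array stood 2.46, 2.92 and 2.57 times above the highest wild-type array. The strain means on 11264_f_at were 507 ± 50.1 and 1598 ± 250 (SD, n = 3 each), which is a fold of 3.14. The log2 fold changes, deletion minus wild type, were 1.65 (SE 0.17), 1.83 (SE 0.17) and 1.72 (SE 0.18) in that order of probe sets. With the fluidics station as a block they were 1.52, 1.77 and 1.76. By size of increase these probe sets ranked 66, 46 and 60 among the 6956 tested.

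All 3 IMD2 probe sets carry the suffix _f, with which Affymetrix marks probe sets whose probes match a family of similar sequences. Signal from IMD3, or from IMD1, a shortened and near-identical relative of IMD2, may therefore be part of these values. IMD1 itself was not analysed here. Across the array 15.9% of 473 tested _f probe sets were called higher, against 14.9% of 5773 without a suffix. The median log2 change of the _f class was -0.03. These values cover all families together and cannot show what the IMD2 probe sets bind. The part of IMD3 or IMD1 signal in the IMD2 values was not tested.

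IMD3 (YLR432W) was read by 1 probe set, 9879_f_at, which has the same suffix. Signal from IMD2 may likewise be part of the IMD3 values, and this was not tested. The normalised intensity of 9879_f_at was 1387, 1138 and 1598 in the wild type and 2268, 2224 and 1880 in the deletion strain. The strains did not overlap, but the gap was small, with the lowest deletion array 1.18 times the highest wild-type array. The means were 1374 ± 230 and 2124 ± 213 (SD, n = 3 each), a fold of 1.55 and a log2 fold change of 0.64 (SE 0.16). Before normalisation the strains overlapped, since deletion array 3, the dimmest array of all, had a deposited intensity of 1307.4 against 1279.3 to 1453 in the wild type. With the fluidics station as a block the log2 fold change was 0.41.

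IMD4 (YML056C) differed least, and its 2 probe sets, 9699_at and 9700_at, carry no suffix. On 9699_at the normalised intensity was 978, 902 and 841 in the wild type and 991, 1077 and 1170 in the deletion strain. On 9700_at it was 402, 352 and 341 against 422, 420 and 552. The strains touched without overlapping: the lowest deletion array was only 1.01 and 1.04 times the highest wild-type array. The log2 fold changes were 0.25 (SE 0.15) and 0.34 (SE 0.17), and on the deposited scale, where the array-wide median was -0.27 instead of -0.01, they were 0.08 and 0.07. With the fluidics station as a block they were 0.36 and 0.44.

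GUA1 (YMR217W), the gene of the next enzyme, was read by 9399_at, which also has no suffix. Its normalised intensity was 1021, 834 and 809 in the wild type and 1201, 1170 and 1631 in the deletion strain. The strains did not overlap and stood 1.15-fold apart at their nearest arrays, and deletion array 3 was clearly the highest. The means were 888 ± 115 and 1334 ± 258 (SD, n = 3 each), a fold of 1.49 and a log2 fold change of 0.58 (SE 0.18). Without deletion array 3 the log2 fold change was 0.42, and with the fluidics station as a block it was 0.70.

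**Figure D1:**
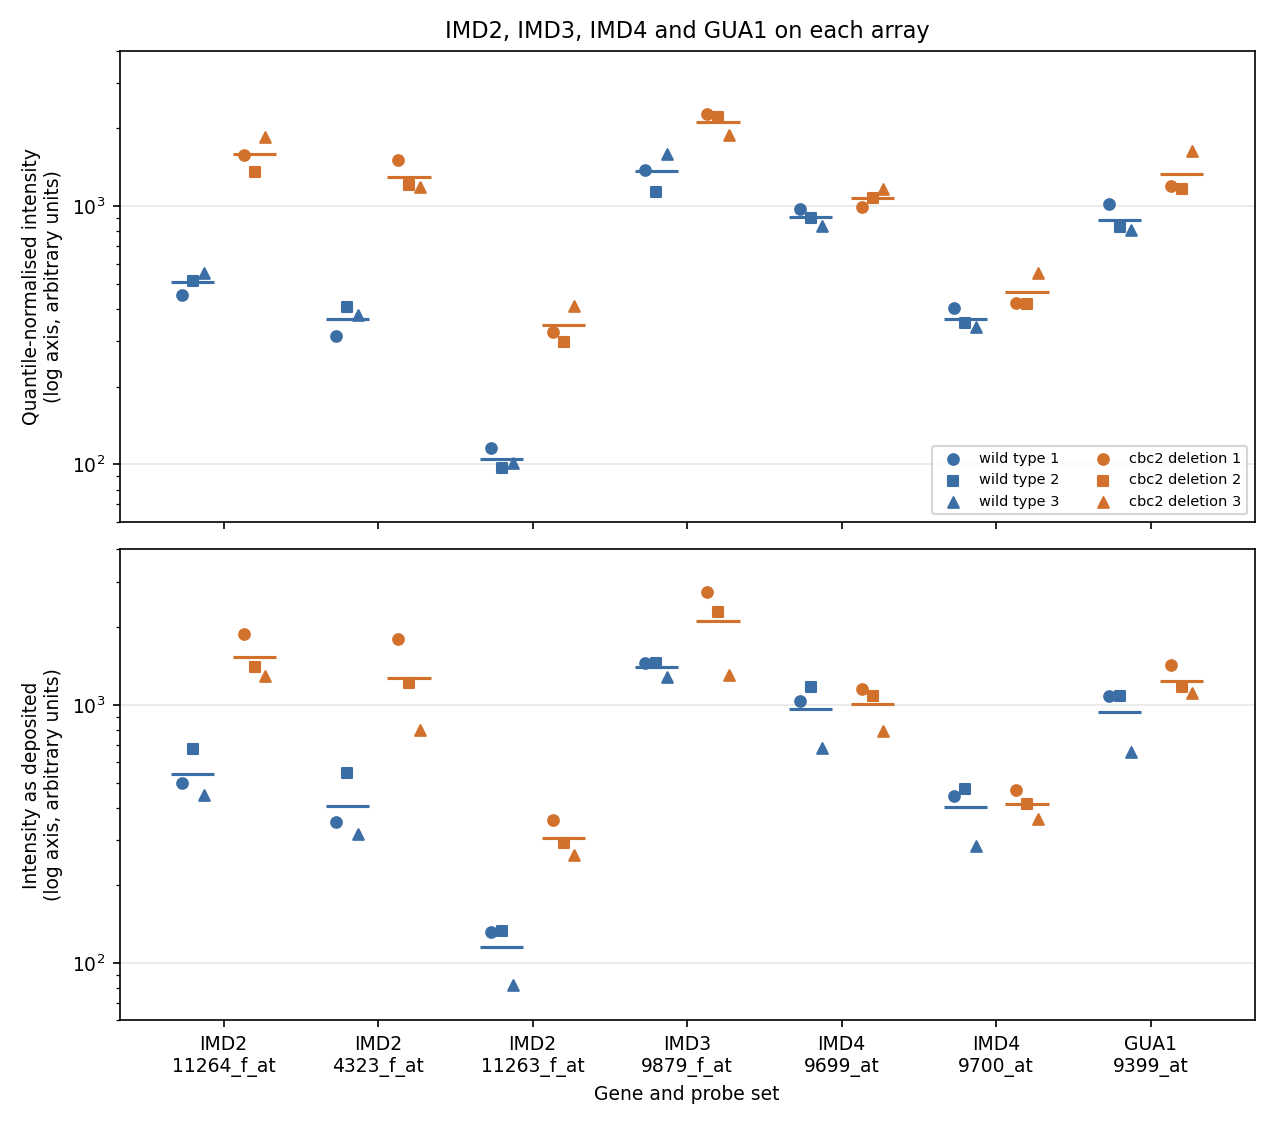
Intensity of the 7 probe sets of IMD2, IMD3, IMD4 and GUA1 on each of the 6 arrays (log axis), quantile normalised above and as deposited below. Each point is 1 array, its shape gives the replicate number, and the bar is the mean of 3 arrays. The 3 IMD2 probe sets are separated by strain in both panels, while IMD3 and IMD4 overlap in the lower one.

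Of the 7 member probe sets, 5 were called, all higher in the deletion strain, and the 2 of IMD4 were not. Across the array 15.2% of tested probe sets were called higher. All 7 had their 3 deletion values above their 3 wild-type values, which was so for 22.8% of tested probe sets. Since the members were picked with this contrast known, nothing is read from these counts. All 7 passed the filter that left out the dimmest 25% of probe sets. Over 14 other settings the log2 fold change lay between 1.35 and 1.94 for the IMD2 probe sets, 0.41 and 0.86 for IMD3, 0.42 and 0.75 for GUA1, and 0.07 and 0.44 for the IMD4 probe sets. As a description only, the calls were kept in all 14 for each IMD2 probe set, in 10 for IMD3 and in 7 for GUA1. These 14 leave out the settings that change only the dim filter or the variance model, so member calls were not followed there. Nothing is read from these counts either. The calls of IMD3 and GUA1 were lost on the deposited scale and with the fluidics station as a block.

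**Figure D2:**
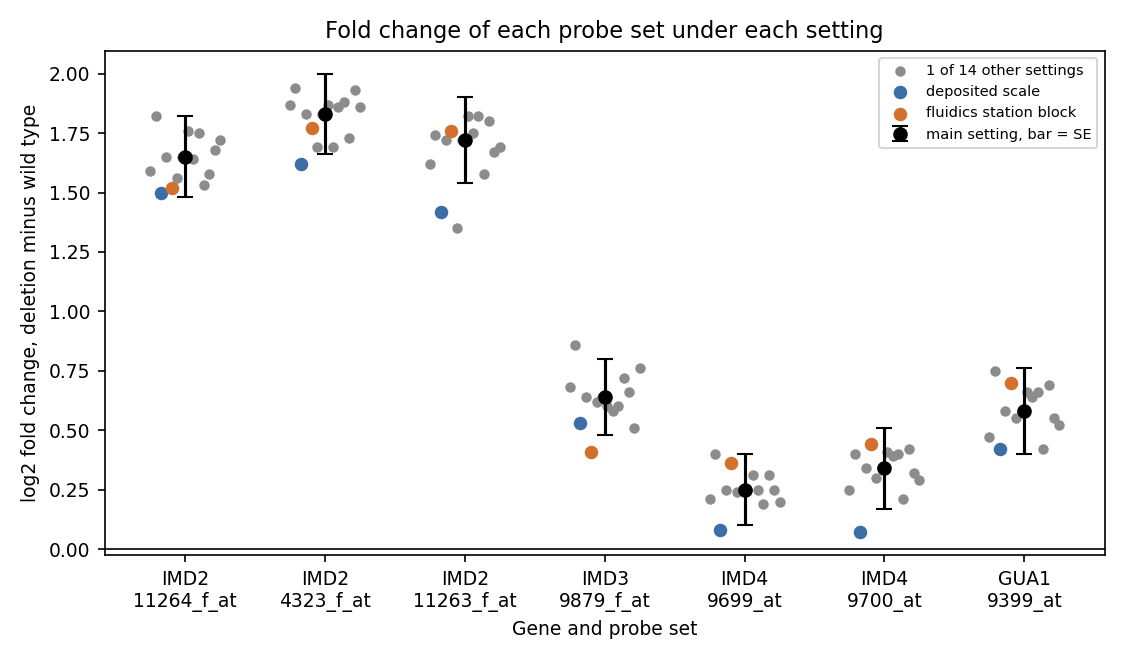
Log2 fold change of each member probe set in the main setting (black, bar = SE) and in 14 other settings (grey), with the deposited scale in blue and the fluidics station block in orange. The IMD2 probe sets lie at 1.35 to 1.94 throughout, apart from the other 4 at 0.07 to 0.86.

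Ratios between probe sets on the same array do not depend on how whole arrays are scaled, so the members were also set against each other within arrays, on the deposited intensities. These ratios rest on the values for which the group was chosen and are likewise a description. In all 12 pairs of an IMD2 probe set with a probe set of IMD3, IMD4 or GUA1, the within-array log2 ratio was higher on the 3 deletion arrays than on the 3 wild-type arrays without overlap. These pairs share probe sets and arrays, so nothing is read from their number. Of single tested probe sets, 22.8% had all 3 normalised deletion values above the 3 wild-type values. The share among pairs of other probe sets was not computed. The change in ratio was 0.88 to 1.09 against IMD3, 1.33 to 1.55 against IMD4 and 0.99 to 1.20 against GUA1 (log2 scale, 3 arrays a strain, SE 0.03 to 0.31). The SE of 0.03 was the smallest of the 12 and belonged to 11263_f_at with GUA1, whose change in ratio was 0.99. For 11264_f_at and 4323_f_at with GUA1 the SE was 0.18 and 0.31.

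The IMD2 probe sets did not separate from each other, with changes in ratio of -0.12 to 0.20 and overlapping arrays in all 3 pairs. The 2 IMD4 probe sets also moved together (0.01, SE 0.08). For IMD4 against GUA1 the changes in ratio were -0.34 (SE 0.12) and -0.35 (SE 0.05), without overlap. For IMD3 they were 0.45 (SE 0.24) and 0.46 (SE 0.28) against IMD4 and 0.11 (SE 0.30) against GUA1, and the arrays of the strains overlapped in these pairs.

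**Figure D3:**
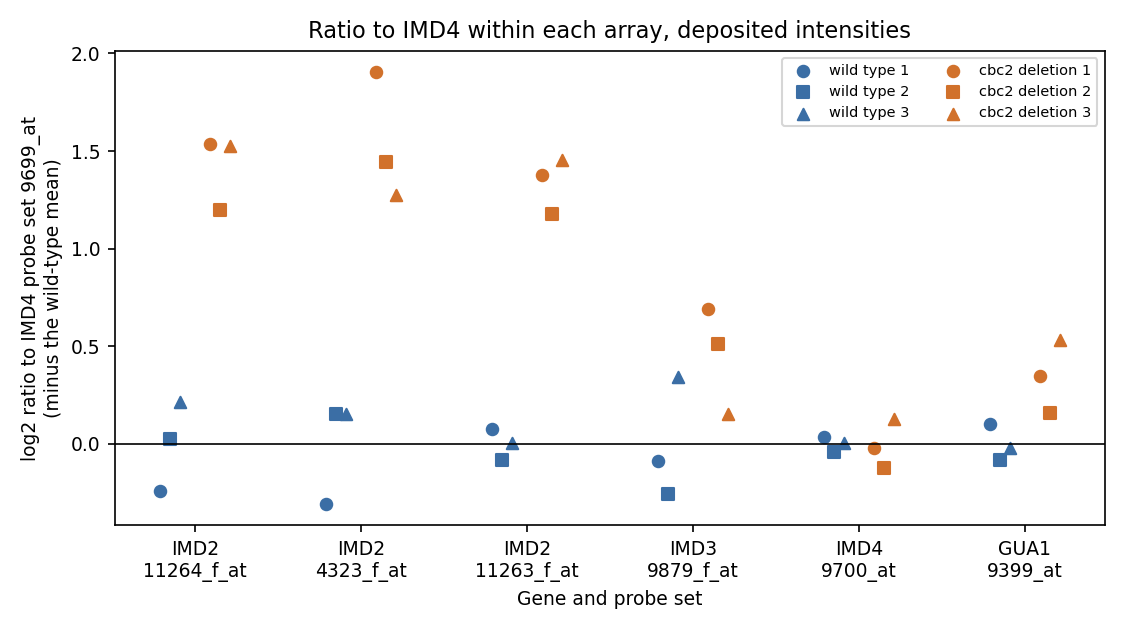
Log2 ratio of each member probe set to IMD4 probe set 9699_at on the same array, from deposited intensities, minus the mean of the wild-type arrays; each point is 1 array. The 3 IMD2 probe sets stand 1.33 to 1.54 higher on the deletion arrays, and the second IMD4 probe set stays at the wild-type level.

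Upstream of the members lie the steps that supply IMP. Of 12 tested genes of the list from ribose phosphate to IMP, 6 fell, 2 rose and 4 were not called, and their median log2 change was -0.23. Over all 5257 tested genes 16.3% were called lower and 16.3% higher, with a median of 0.0037. ADE2 (-1.95, SE 0.18, adjusted p = 0.000185), whose enzyme carboxylates aminoimidazole ribotide, ADE8 (-1.22, SE 0.14, adjusted p = 0.000305), ADE1 (-1.44, SE 0.16, adjusted p = 0.00032) and ADE17 (-1.24, SE 0.17, adjusted p = 0.000817) had the smallest p. The list was written with the fall of several ADE genes known. ADE5,7 was not analysed here. PRS1 (0.58, SE 0.16, adjusted p = 0.0234) and PRS4 (0.71, SE 0.18, adjusted p = 0.014), subunits of the synthetase that makes the ribose donor PRPP, were the 2 that rose. With the fluidics station as a block 4 genes of the list were called, all lower, and on the deposited scale 5, all lower.

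Of 9 tested genes that supply one-carbon units to the purine ring, 5 fell, none rose and 4 were not called, with a median log2 change of -0.91. GCV1, GCV3 and GCV2, subunits of the glycine cleavage complex, were at -1.59 (SE 0.14, adjusted p = 0.000131), -1.39 (SE 0.18, adjusted p = 0.000568) and -1.51 (SE 0.20, adjusted p = 0.000715). SHM2, the cytosolic serine hydroxymethyltransferase gene, was at -1.11 (SE 0.15, adjusted p = 0.000871). These 4 calls were kept in all 18 other settings. Of the list of regulators, PHO2, which acts with Bas1 on ADE promoters, fell (-0.57, adjusted p = 0.045), a call lost in 13 of 17 other settings. BAS1 was at -0.57 (adjusted p = 0.0801) and GCN4 at -0.07 (adjusted p = 0.67). VHR2, which rose (1.64, SE 0.15, adjusted p = 0.00018), and VHR1 (-0.30, adjusted p = 0.454) stood in the same list, but VHR1 is known for the response to biotin and not for ADE genes.

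At IMP the pathway divides, and no gene of the other branch, to AMP, was called. ADE12, which encodes adenylosuccinate synthetase, had normalised intensities of 4428, 3983 and 4170 in the wild type and 2600, 3314 and 3655 in the deletion strain, a log2 fold change of -0.41 (SE 0.15, adjusted p = 0.0609). The deletion arrays all lay below the wild-type arrays. Of 18 other settings, ADE12 was called in 2: without deletion array 3 (-0.51, adjusted p = 0.0319) and with array weights (-0.46, adjusted p = 0.0284). Over these 18 settings its log2 fold change ranged from -0.51 to -0.04. ADE13, the adenylosuccinate lyase gene of both this branch and the path to IMP, was at -0.64 (SE 0.22, adjusted p = 0.051). It was called in 3 of 18 other settings (adjusted p from 0.0271 to 0.0499). AMD1, the AMP deaminase gene that returns AMP to IMP, was at 0.06 (SE 0.17, adjusted p = 0.821).

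Beyond GMP, GUK1, the guanylate kinase gene that makes GDP, rose with normalised intensities of 1412, 1288 and 1574 in the wild type and 2321, 2078 and 2888 without CBC2 (0.76 on the log2 scale, SE 0.16, adjusted p = 0.00693). The strains did not overlap on these values. The call was lost on the deposited scale, at 0.68 with an adjusted p of 0.216, and under the station block, at 0.61 with an adjusted p of 0.125. YNK1, the nucleoside diphosphate kinase gene of the last step to GTP, was at -0.26 (adjusted p = 0.376). Of the genes that use guanine nucleotides, RNR1, a ribonucleotide reductase subunit gene, rose (0.56, adjusted p = 0.0196, lost in 5 of 18 settings). RIB1, the GTP cyclohydrolase gene of riboflavin synthesis, fell (-0.59, adjusted p = 0.0115, lost in 3 of 18). FOL2, the GTP cyclohydrolase gene of folate synthesis, was at -0.25 (adjusted p = 0.293). In this list of 5 genes 2 rose and 1 fell, at a median of -0.25, and on the deposited scale or with the station block 0 were called.

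Of 13 salvage and breakdown genes, 5 rose, 1 fell and 7 were not called, with a median log2 change of 0.15. GUD1, the guanine deaminase gene, had normalised intensities of 295, 298 and 343 in the wild type and 143, 157 and 161 in the deletion strain, and fell by 1.02 on the log2 scale (SE 0.16, adjusted p = 0.00151). APT2, a relative of the adenine phosphoribosyltransferase gene APT1, went from 77.0, 89.3 and 66.6 to 244, 233 and 229 (1.61, SE 0.17, adjusted p = 0.00028). The strains stood well apart for both genes, and both calls were kept in all 18 other settings. HPT1, which encodes the phosphoribosyltransferase that recovers guanine and hypoxanthine, was at -0.02 (SE 0.19, adjusted p = 0.95).

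The other salvage genes that rose did so by less. XPT1, the xanthine phosphoribosyltransferase gene, was at 0.73 (adjusted p = 0.0174, lost in 4 of 18 settings) and PNP1, the purine nucleoside phosphorylase gene, at 0.52 (adjusted p = 0.0257, lost in 8). APT1 was at 0.54 (adjusted p = 0.0492, lost in 12) and the nucleosidase gene URH1 at 0.94 (adjusted p = 0.0456, lost in 10). Not called were AAH1 (0.15, adjusted p = 0.635), ADO1 (-0.23, adjusted p = 0.162), ISN1 (0.24, adjusted p = 0.286), SDT1 (-0.29, adjusted p = 0.216), PHM8 (0.09, adjusted p = 0.651) and NPY1 (0.11, adjusted p = 0.644). On the deposited scale, with the station block and without wild-type array 2, each time 1 gene of the list was called higher and 1 lower. Without wild-type array 1, 3 genes were called. Of 4 tested uptake genes 1 rose and 1 fell (median -0.22). The permease gene FCY21 was at 0.83 (adjusted p = 0.0383, lost in 8 of 17 settings). TPN1 was at -1.27 (SE 0.19, adjusted p = 0.00123) and carries vitamin B6, not purines. FCY2, the main purine and cytosine permease gene, was at -0.06 (adjusted p = 0.818).

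**Figure D4:**
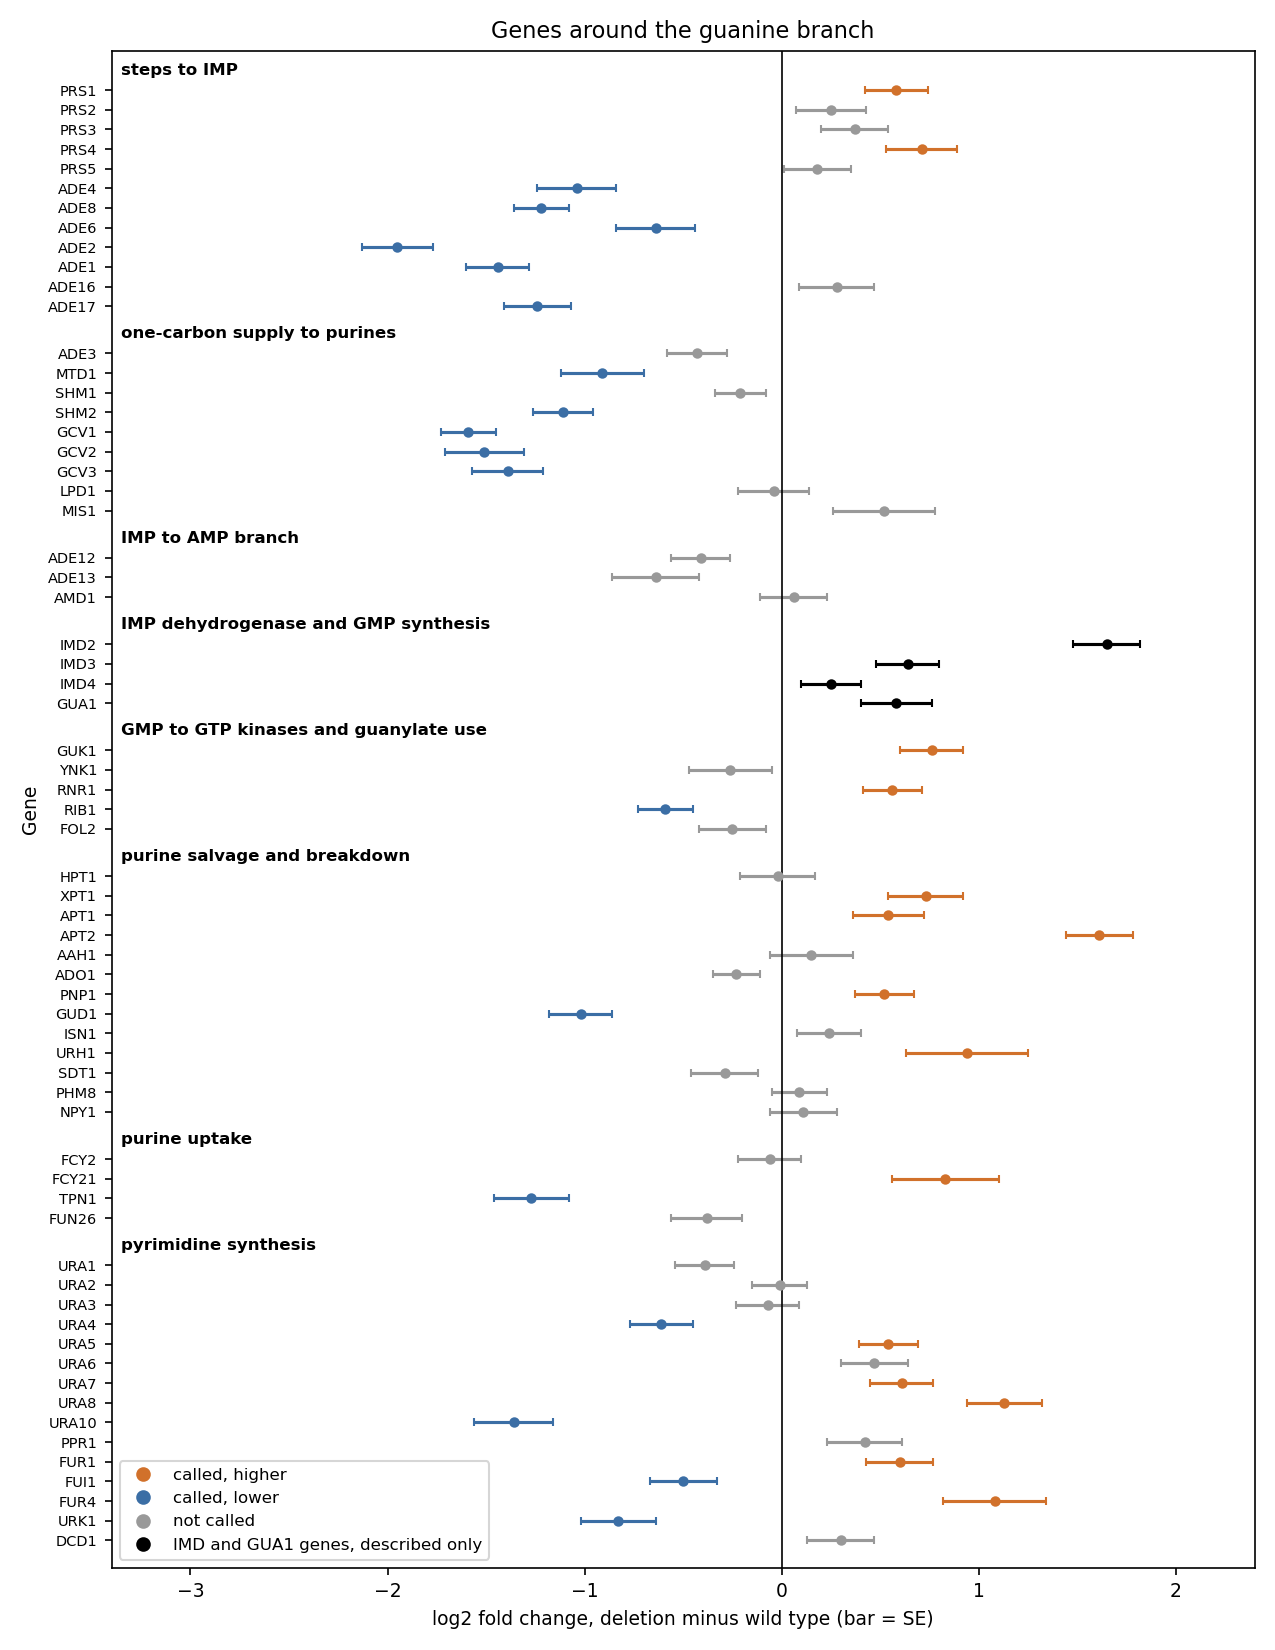
Log2 fold change, deletion minus wild type, with its SE, of the tested genes around the guanine branch, ordered from the steps to IMP downwards. Orange points were called higher, blue lower and grey not called, and the IMD and GUA1 genes are in black, whatever their call. The ADE2, ADE8, ADE1 and ADE17 points lie at -1.95 to -1.22, and IMD2 lies at 1.65.

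IMD2 belongs to a small set of genes whose start site or early termination is known to follow nucleotide supply, with URA2, URA8 and ADE12. Of these, URA8, a CTP synthase gene, rose, with normalised intensities of 685, 569 and 814 in the wild type and 1368, 1338 and 1825 without CBC2 (1.13 on the log2 scale, SE 0.19, adjusted p = 0.00205). The strains did not overlap. This call too was lost on the deposited scale, at 1.00 with an adjusted p of 0.0669, and under the station block, at 0.88 with an adjusted p of 0.0617. URA2, which encodes the first enzyme of pyrimidine synthesis, was at 2357, 2935 and 2634 against 2634, 2427 and 2790 (-0.01, SE 0.14, adjusted p = 0.965), and its strains overlapped. ADE12 is given above.

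Among all 15 pyrimidine genes tested, 5 rose, 4 fell and 6 were not called (median 0.30). Besides URA8, those of smallest p were URA10 (-1.36, SE 0.20, adjusted p = 0.0012), an orotate phosphoribosyltransferase gene, the uridine kinase gene URK1 (-0.83, SE 0.19, adjusted p = 0.0102) and the uracil permease gene FUR4 (1.08, SE 0.26, adjusted p = 0.0114). With the station block and on the deposited scale 2 genes of this list were called, both lower, and without deletion array 1, 5 were called. URA10 and URK1 were called in all 18 other settings.

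The genes of the complex that ends the short IMD2 transcripts were not called. NRD1, its RNA-binding subunit and itself subject to early termination, had normalised intensities of 513, 462 and 491 in the wild type and 643, 698 and 542 without CBC2 (0.35 on the log2 scale, SE 0.16, adjusted p = 0.116). Its strains did not overlap. NAB3, the other RNA-binding subunit, was at 0.06 (SE 0.18, adjusted p = 0.829) and the helicase gene SEN1 at -0.05 (SE 0.22, adjusted p = 0.881). Among 15 genes for the complex and for proteins that work with it, 14 were not called and 1 fell (median 0.12). That gene was AIR2, of the TRAMP complex (-0.52, adjusted p = 0.0368), and its call was lost in 9 of 18 settings. Among 20 elongation factor genes 18 were not called and 2 rose (median 0.07), though neither was called on the deposited scale or with the station block. The 2 were RPB9, an RNA polymerase II subunit gene (0.73, adjusted p = 0.0175, lost in 5 of 18 settings), and ELF1 (0.47, adjusted p = 0.0398, lost in 11). DST1, the TFIIS gene, was at 0.43 (adjusted p = 0.204). STO1, the large subunit of the cap-binding complex, rose (0.59, SE 0.15, adjusted p = 0.0169, lost in 3 of 18).

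IMD4 holds the small nucleolar RNA gene SNR54 within its span in the gene table. SNR54 is known to be made from the IMD4 intron. Signal from unspliced IMD4 RNA may therefore be part of the SNR54 values, and this was not tested. The SNR54 probe set was dim, with normalised intensities of 28.0, 21.4 and 18.5 in the wild type and 58.0, 57.9 and 87.5 in the deletion strain. It rose by 1.58 on the log2 scale (SE 0.27, adjusted p = 0.00234) and was called in all 17 other settings that tested it, at 0.69 with a pseudocount of 50. Set against IMD4 probe set 9699_at on the same array, on deposited values, SNR54 changed by 1.16 more (log2 scale, SE 0.16, 3 arrays a strain), without overlap between the strains. Values of IMD4 are used in this ratio, so it is given as a description.

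The other neighbours of the members in the gene order of assembly R64 showed no common direction. Beside IMD2 lies the acid phosphatase gene PHO12, read by a probe set that it shares with its copy PHO11 and which rose from 620 ± 116 to 2569 ± 197 (SD, n = 3 each), by 2.06 on the log2 scale (SE 0.17, limma adjusted p = 0.000105). On its other side lie the subtelomeric genes YHR218W and YHR219W, read only by probe sets shared with many copies. Of 13 such probe sets tested, 5 fell, none rose and 8 were not called, with log2 fold changes from -0.99 to 0.07. Beside IMD3, CNA1 was at -0.13 (adjusted p = 0.598), TSR2 at 0.22 (adjusted p = 0.577) and SEN1 is given above. Beside IMD4, SPC2 rose (0.96, SE 0.18, adjusted p = 0.00373), while CMP2 was at -0.11 (adjusted p = 0.65) and SML1 at -0.36 (adjusted p = 0.0559). The SPC2 call was lost on the deposited scale, at 0.70. Beside GUA1, the kinase gene SKY1 fell (-0.97, SE 0.18, adjusted p = 0.00339), while GAS3 was at 0.33 (adjusted p = 0.107), TRS130 at 0.38 (adjusted p = 0.322) and ESC1 at 0.29 (adjusted p = 0.394). The SKY1 call was lost with the fluidics station as a block, at -0.77. Of 11 tested neighbours, SNR54 included, 2 rose and 1 fell (median 0.22). ATG23 and YHR214C-E were too dim to be tested.

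Likeness of profile was measured as the root mean square difference of log2 values over the 6 arrays, each profile centred on its wild-type mean, among 5066 other genes with a probe set without a suffix. Nearest to IMD2 (11264_f_at) were VHR2 at 0.101, COA4 at 0.125 and IMG1 at 0.132, with log2 fold changes of 1.64, 1.55 and 1.51. Nearest to IMD3 were MIR1 (0.0584), COX14 (0.084) and CPR3 (0.0854). Nearest to GUA1 were TIF4632 (0.0579), VAC14 (0.0618) and MRPL10 (0.0671), and to IMD4 (9699_at) GPI8 (0.0311), RPT5 (0.0373) and FAT1 (0.0383). By the same measure the distance of IMD2 to the other 2 IMD2 probe sets was 0.16 and 0.23, and to IMD3, GUA1 and IMD4 0.76, 0.78 and 0.94 to 1.01. Every member had genes outside the group nearer to it than any other gene of the group. Since 5066 outside genes were searched and the members are few, nothing about the group is read from this. With 2 strains this measure mostly reflects the size of the strain difference.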

How the data were processed

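Total RNA was hybridised to 6 Affymetrix Yeast Genome S98 arrays, 3 per strain. The authors deposited linear intensities, 1 per probe set and array. The summarisation software and any scaling are not given in the labels or headers. The other run information deposited per array was read only for fluidics station and scan batch, per the file headers. The 2% trimmed mean of deposited intensities differed 1.88-fold between arrays. Intensities were therefore quantile normalised, which removes any shift common to all transcripts, raised to a floor at the 10th percentile (8.25) and log2 transformed. Left out were 60 control probe sets and, of the remainder, the dimmest 25%. The 6956 remaining were compared with limma 3.58.1 in R 4.3.3 (lmFit, eBayes with trend) over all 6 arrays, and Benjamini-Hochberg adjustment ran over all of them. The median SE was 0.20 (log2), and precision is limited by the number of arrays. The fit was tested on simulated data.

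The annotation gave 6504 probe sets 1 symbol, 328 several and 2503 none. All 6504 were found by ID in the R64 gene annotation. A listed gene was read from its brightest probe set without a suffix, else its brightest of any suffix. All member probe sets were used. Members and lists were chosen with earlier results of these data known. Named genes were the members, CBC2, STO1, all genes of the short lists, up to 4 called genes of smallest p in each longer list, and the 3 nearest profiles of each member. PRS1, PRS4, BAS1, GCN4, VHR1, DST1 and FCY2 were added after their values were seen. No sequences of these genes were analysed here.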

Additional observations from a re-analysis of the deposited data

How the results depend on the processing

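Settings tried beside the main one were 18 for the array-wide test and 14 for the members. The count of called probe sets, 2187, was 728 on the deposited scale and 675 with the fluidics station as a block, and 1500 to 1964 when 1 array was left out. The station block compares wild-type array 3 alone, within its station, with the deletion arrays. On the deposited scale the log2 fold change was 1.62 for IMD2 probe set 4323_f_at, 1.42 for 11263_f_at, 0.08 for IMD4 probe set 9699_at and 0.07 for 9700_at. With a pseudocount of 50 it was 1.35 for 11263_f_at. With the arrays scaled to one median, which put the median of all probe sets at 0.06, it was 0.86 for IMD3 and 0.40 for 9699_at, and with the station block 0.41 for IMD3. The cause of these shifts was not tested. When 1 array was left out, the ranges were 1.53 to 1.75 for 11264_f_at, 1.69 to 1.93 for 4323_f_at, 1.58 to 1.82 for 11263_f_at, 0.51 to 0.76 for IMD3, 0.19 to 0.31 and 0.21 to 0.42 for IMD4, and 0.42 to 0.69 for GUA1. No member value changed sign in these settings. Replicate numbers were shared by the strains, and the labels do not say whether they mark pairs. Correlations of same-numbered deviations were weak (-0.23, -0.09 and 0.08), which cannot show that the arrays were unpaired. In both strains array 3 was the dimmest, with trimmed means of 301.5 in the wild type and 251.7 in the deletion strain. With the replicate block 1911 probe sets were called.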
